A study of Homo sapiens with 9 samples.

Results

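The sestrins SESN1, SESN2 and SESN3, the GATOR1 subunits DEPDC5, NPRL2 and NPRL3, and the GATOR2 subunits WDR24, WDR59, MIOS and SEH1L were examined in SKMEL28 human melanoma cells. These 10 genes were taken by symbol from the 48162 genes of the count and FPKM tables. SKMEL28 is an established melanoma cell line. The control cells (shCont) carried a lentiviral short hairpin RNA against GFP, and the shp16 cells carried one against p16, which CDKN2A encodes. The shp16+shATR cells carried hairpins against p16 and against the DNA damage kinase ATR. All groups were grown in DMEM with serum, transduced with lentivirus and held in puromycin at 1 µg/ml for 3 days, and each group had 3 RNA sequencing libraries. Which ATR hairpin was used, and whether these shp16 cells were given a second, control virus, is not given in the sources used here. No group with the ATR hairpin alone was analysed here, so the effect of ATR was compared only within shp16 cells. The study describes expression data of this kind as technical replicates of 1 experiment. The p-values below therefore measure the spread between these libraries, which may be technical.

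mTORC1 is a kinase complex that drives growth when amino acids are plentiful, and it is brought to the lysosome by the Rag GTPases. GATOR1 switches RagA and RagB off and so restrains mTORC1, while GATOR2 acts in opposition to GATOR1. Sestrins bind GATOR2 when leucine is scarce, with SESN2 and SESN1 serving as leucine sensors, and they are also stress-inducible: SESN2 is a target of ATF4, and SESN1 and SESN3 are targets of FOXO factors. The question addressed was whether the mRNAs of this amino acid sensing arm differed with p16 knockdown and with the added knockdown of ATR. It was asked in 3 comparisons: the p16 comparison set shp16 relative to shCont, the ATR comparison set shp16+shATR relative to shp16, and the combined comparison set shp16+shATR relative to shCont.

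In the tables SESN2 (ENSG00000130766) lies on chromosome 1 from 28586038 to 28609002 and SESN3 (ENSG00000149212) on chromosome 11 from 94898704 to 94965705, while NPRL3, WDR24 and WDR59 share chromosome 16. The tables name no genome build, and their positions differ from those of GRCh38. SESN2 and SESN3 were the sestrins whose mRNA differed between groups, and the windows just upstream of their start sites are printed because the results turn on these genes. The sequences are from RefSeq on GRCh38.p14, cover 250 bases before the annotated start of transcription, and read 5′ to 3′ along the gene. Capitals mark the letters CCAAT, or ATTGG where the motif lies on the other strand.
SESN2, chr1:28259268-28259517, plus strand: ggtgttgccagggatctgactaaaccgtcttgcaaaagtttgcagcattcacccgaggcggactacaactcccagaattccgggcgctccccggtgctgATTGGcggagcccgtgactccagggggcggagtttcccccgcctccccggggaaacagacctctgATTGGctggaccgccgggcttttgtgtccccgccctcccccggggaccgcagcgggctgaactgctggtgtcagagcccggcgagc
SESN3, chr11:95232476-95232725, minus strand: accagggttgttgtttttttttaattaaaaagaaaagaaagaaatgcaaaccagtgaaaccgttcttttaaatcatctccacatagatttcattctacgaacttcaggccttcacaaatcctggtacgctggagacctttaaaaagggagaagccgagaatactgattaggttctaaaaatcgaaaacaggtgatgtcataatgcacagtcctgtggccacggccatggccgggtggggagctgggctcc
The SESN2 window was 65.6% G and C, and the SESN3 window was 42.8%. RefSeq windows were matched for 9 of the 10 genes, 13 windows in all, and WDR24 had no match. The motifs searched on both strands were CACGTG (an E-box), TGATGNAA (an ATF4 composite element), GTAAACA (FOXO), TGACGTCA (CRE) and CCAAT, of which CCAAT was added after the sequences had been seen. None of the motifs other than CCAAT occurred in the 13 windows. In the order named, they occur in 6.34%, 3.14%, 2.98% and 1.65% of 35116 RefSeq windows of the same length. CCAAT occurs in 32% of those windows. It was present in SESN2 at positions -151 to -147 and -86 to -82 from the start site, in 2 of the 3 SESN1 windows, in NPRL2 and, in 2 copies, in WDR59. None of the motifs overlapped another in these windows. A match of letters describes the sequence only, and none was tested as a binding site.

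The 9 libraries held 17314662 to 23588174 counts, and each of the 10 genes had between 137 and 2664 counts in every library and passed the filter on low counts. CDKN2A, the gene the p16 hairpin targets, measured 126 ± 31.7 CPM (counts scaled to a common library size, normalised by TMM; SD, n = 3) in shCont. The shp16 libraries averaged 90.5 ± 11.2 CPM and the shp16+shATR libraries 85.0 ± 4.33 CPM. The change from shCont to shp16 was -0.48 on the log2 scale and did not pass the test (edgeR quasi-likelihood, adjusted p = 0.0723), although the libraries of the groups did not overlap. Counts are per gene, so the transcripts of CDKN2A were not told apart. In the combined comparison CDKN2A fell by 0.57 on the log2 scale (adjusted p = 0.0263). ATR measured 87.5 ± 5.32 CPM in shp16 and 40.3 ± 0.637 CPM in shp16+shATR cells, and it fell by 1.12 on the log2 scale (adjusted p = 0.0128). In shCont, ATR measured 78.6 ± 28.3 CPM, with replicate 1 at 45.9. The fall of ATR in the combined comparison was 0.96 on the log2 scale (adjusted p = 0.00832). shCont replicate 1 stood apart across all genes, with correlations of 0.976 and 0.973 to the other shCont libraries, which correlated at 0.992 with each other. shp16 replicate 1 correlated at 0.986 with the other shp16 libraries, which correlated at 0.992. The share of mitochondrial counts ranged from 4.25% to 7.24% and was highest in shp16 replicate 1 and shCont replicate 1. The 7 melanocyte lineage markers were all detected, summing to 7680 CPM in shp16 replicate 1 and to between 10887 and 14881 CPM in the other libraries, and S100B alone of the 7 differed in the p16 comparison (-0.68) and in the ATR comparison (0.67). Of the markers of other cells, PTPRC, EPCAM and PDGFRB were under the filter and PECAM1 was not analysed here. KRT5 had 0 counts in all shCont libraries and reached 2.03 to 2.99 CPM in shp16 libraries and 0.359 to 2.25 CPM in shp16+shATR libraries. It was called higher in the p16 comparison (8.59, adjusted p = 0.00123) and in the combined comparison (7.83, adjusted p = 0.00184), both set against 0 counts. The ATR comparison gave no call for KRT5 (-0.75, adjusted p = 0.464). The sum over the markers was 0.103 to 0.574 CPM in shCont, against 2.23 to 3.22 CPM in shp16 and 0.922 to 2.42 CPM in shp16+shATR. Its part in the results was not tested.

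The libraries that stand apart also bear on the genes described here. The CPM of shCont replicate 1 was 0.597 times the mean of replicates 2 and 3 for SESN3, 0.734 times for SEH1L and 0.751 times for MIOS. It was 1.53 times that mean for NPRL2, 1.47 times for NPRL3 and 1.69 times for WDR24. Thus 6 of the 10 genes lay at least 1.3-fold from the other shCont libraries, a fold chosen after the values were seen, beside 53.3% of the 15776 genes tested. SESN2, SESN1, DEPDC5 and WDR59 lay closer, with SESN2 at 1.07 times. In shp16 replicate 1, NPRL2 at 0.609 times and WDR59 at 0.714 times lay past that fold, beside 29% of all genes. For the 10 genes, values without shCont replicate 1 are given below wherever they change a call. The ATR comparison holds no shCont library, but the spread of each gene is estimated from all libraries in the fit. As a coefficient of variation, the common spread was 0.149 with all libraries and 0.0903 without shCont replicate 1. An adjusted p of the ATR comparison can therefore change while its fold change stays nearly the same.

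**Figure D1:**
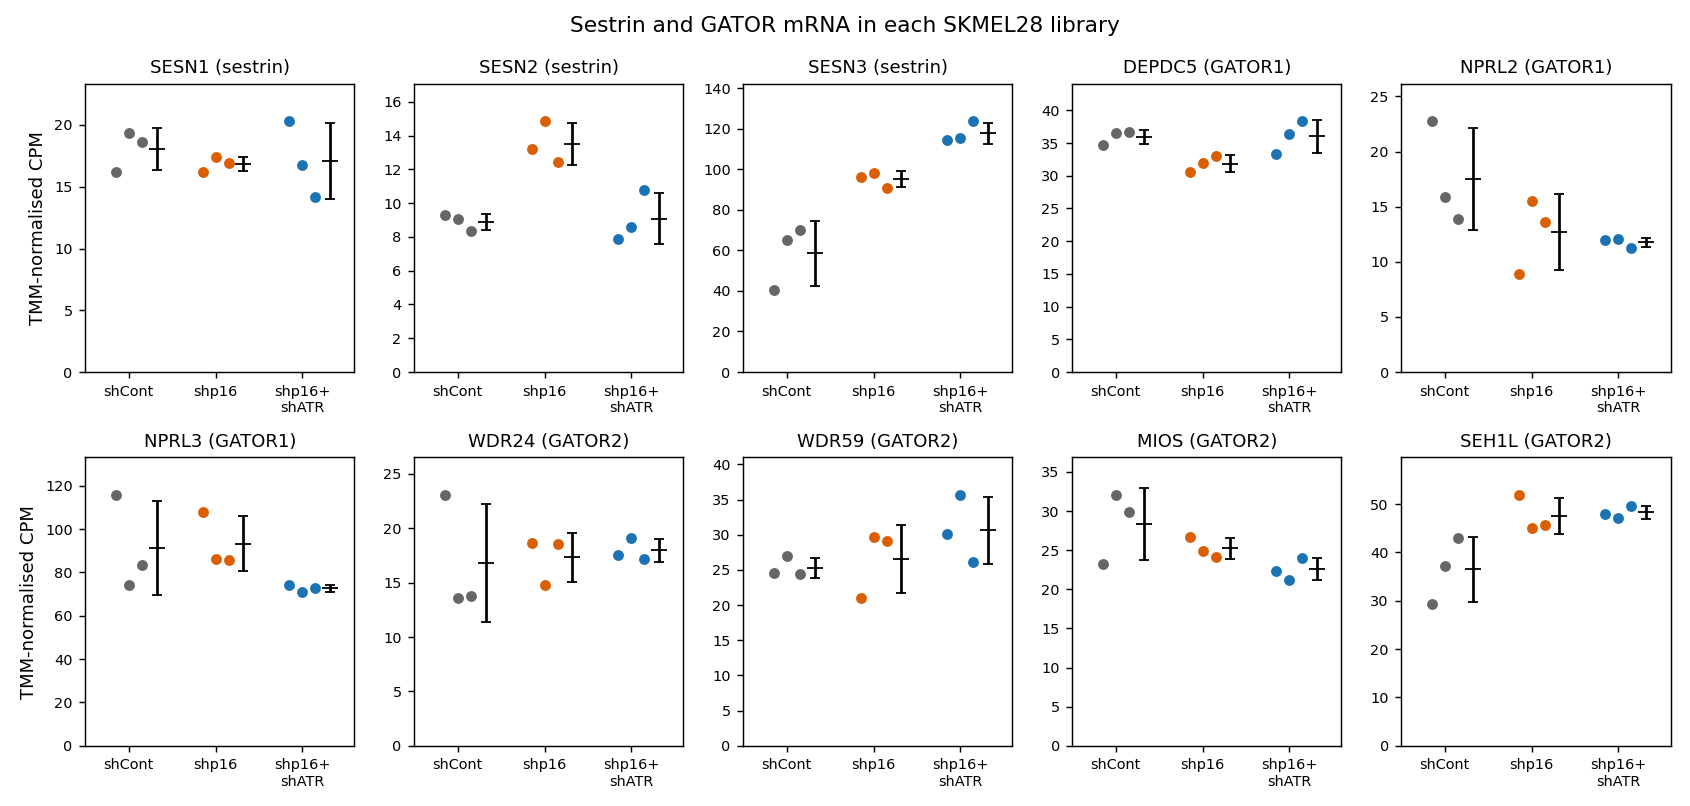
Each panel plots the TMM-normalised CPM of 1 gene (vertical axis, from 0) in the 9 libraries, with points for libraries and black bars for the group mean ± SD (n = 3). SESN2 is highest in the 3 shp16 libraries, and SESN3 is higher in all shp16 and shp16+shATR libraries than in any shCont library. The first grey point is shCont replicate 1. It lies at least 1.3-fold from the mean of the other shCont libraries for SESN3, NPRL2, NPRL3, WDR24, MIOS and SEH1L.

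In the p16 comparison, SESN2 and SESN3 rose and no member fell. These 2 of 10 calls (20%) stand beside 14.8% of all 15776 genes called at an adjusted p of 0.05. Their direction stands beside 7.23% of all genes called higher and 7.59% called lower. The median log2 fold change of the 10 genes was 0.04, beside -0.02 over all genes. The libraries of the groups did not overlap for 4 of the 10 genes, beside 33.6% of all genes. In bulk RNA, a change in the share of cells that carry an mRNA and a change in its level per cell cannot be told apart.

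SESN2, which binds leucine and inhibits GATOR2 when leucine is absent, measured 9.28, 9.04 and 8.34 CPM in the shCont libraries, 13.2, 14.8 and 12.4 CPM in the shp16 libraries, and 7.90, 8.57 and 10.8 CPM in the shp16+shATR libraries. The 3 shp16 libraries lay above all 6 others, and the shCont and shp16+shATR libraries overlapped. SESN2 rose 1.52-fold in the p16 comparison (log2 fold change 0.60, SE 0.148, adjusted p = 0.0197), a call lost in 5 of 21 alternatives, among them the omission of shCont replicate 2 (adjusted p = 0.0509) or of shp16 replicate 2 (adjusted p = 0.0820) and the replicate block (adjusted p = 0.109). In the ATR comparison it fell by 0.57 on the log2 scale (SE 0.148, adjusted p = 0.0436), to 0.673 times the shp16 level. The shp16+shATR and shCont groups differed by 0.03 (95% confidence interval -0.30 to 0.36, adjusted p = 0.909). The first pair of comparisons share the shp16 libraries, so their opposite signs are not independent of each other. The fall in shp16+shATR was near the threshold. Without shCont replicate 1 both changes were called, at 0.63 (adjusted p = 0.0107) and -0.57 (adjusted p = 0.0110). DESeq2 gave -0.57 (adjusted p = 0.0202), limma on log2(FPKM + 1) gave -0.44 (adjusted p = 0.0716), and the call was lost in 12 of 20 alternatives, among them the omission of any 1 of the shp16 libraries, of shCont replicate 2 or of shp16+shATR library a or b.

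SESN3, like SESN1 a target of FOXO factors, measured 40.3, 65.1 and 70.1 CPM in shCont, 96.3, 98.2 and 90.8 CPM in shp16, and 114, 115 and 124 CPM in shp16+shATR. The libraries of the 3 groups did not overlap, with shCont lowest and shp16+shATR highest. SESN3 rose 1.63-fold in the p16 comparison (log2 fold change 0.70, SE 0.170, adjusted p = 0.0184). It rose 2.02-fold in the combined comparison (1.01, SE 0.171, adjusted p = 0.00139). The step from shp16 to shp16+shATR, 0.31 with an SE of 0.168, did not pass the test (adjusted p = 0.343). Without shCont replicate 1, whose SESN3 was the lowest of all libraries, the 3 changes were 0.49 (adjusted p = 0.000755), 0.80 (adjusted p = 1.26e-05) and, for the ATR comparison, 0.31 (adjusted p = 0.00601). The rise over shCont in shp16+shATR was called in all 20 alternatives, and that in shp16 was lost in 5 of 21, including the omission of shp16 replicate 1 or 2 (adjusted p = 0.0587 and 0.0608). A lncRNA annotated on the opposite strand of SESN3, RP11-712B9.2, had a mean of 31.9 counts. Whether counting used strand is not given in the sources used here, so reads of SESN3 and of this gene cannot be told apart where they overlap.

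SESN1, a leucine sensor, measured 16.2, 19.4 and 18.6 CPM in shCont, 16.2, 17.4 and 16.9 CPM in shp16, and 20.3, 16.8 and 14.2 CPM in shp16+shATR. The groups overlapped in every comparison. The log2 fold change was -0.10 in the p16 comparison (95% confidence interval -0.41 to 0.21), 0.02 in the ATR comparison (-0.29 to 0.33) and -0.08 in the combined comparison (-0.39 to 0.23). None passed the test (adjusted p = 0.688, 0.963 and 0.731).

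**Figure D2:**
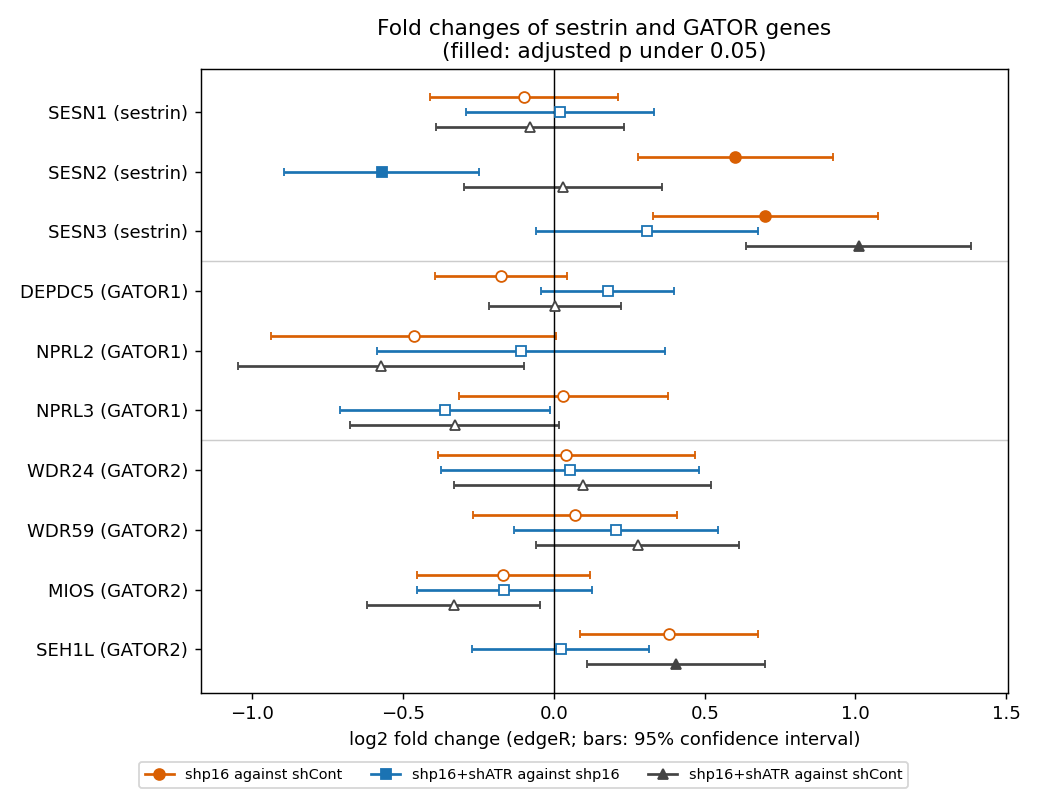
The log2 fold change of each gene (horizontal axis, bars for the 95% confidence interval, edgeR) is drawn for the 3 comparisons, which share libraries, with filled symbols for an adjusted p under 0.05. SESN2 lies at 0.60 in the p16 comparison and at -0.57 in the ATR comparison, SESN3 is filled at 0.70 and 1.01, SEH1L is filled at 0.41, and every other symbol is open.

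The GATOR1 subunits gave no call in any comparison. At an unadjusted p under 0.05 edgeR gave 0, 1 and 1 of 3 subunits in the p16, ATR and combined comparisons, and DESeq2 and limma called 0. Here and below, counts of this kind have no share of all genes beside them. They are therefore not read as results about these genes. DEPDC5, the subunit that contacts the Rag GTPases, measured 34.8, 36.5 and 36.6 CPM in shCont, 30.5, 32 and 33 CPM in shp16, and 33.4, 36.4 and 38.3 CPM in shp16+shATR. All shp16 libraries were below all other libraries. The differences were nevertheless -0.18 against shCont (SE 0.101, adjusted p = 0.275) and, for the ATR comparison, 0.18 (SE 0.101, adjusted p = 0.362).

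NPRL3, which forms a heterodimer with NPRL2, measured 116, 74.3 and 83.6 CPM in shCont, 108, 86.0 and 85.7 CPM in shp16, and 74.1, 71.0 and 72.9 CPM in shp16+shATR. The shp16+shATR libraries lay below all other libraries. NPRL3 gave -0.36 in the ATR comparison (SE 0.159, adjusted p = 0.230) and -0.33 in the combined comparison (adjusted p = 0.160). Without shCont replicate 1 the first of these stayed at -0.36 and became a call (adjusted p = 0.0166). In the p16 comparison the value was 0.03, and its sign changed between alternatives.

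NPRL2, the catalytic subunit of GATOR1, measured 22.8, 15.9 and 13.9 CPM in shCont, 8.88, 15.6 and 13.6 CPM in shp16, and 12, 12 and 11.3 CPM in shp16+shATR. The shCont and shp16 libraries overlapped, and the shp16+shATR libraries lay below all shCont libraries. The log2 fold change was -0.47 in the p16 comparison (SE 0.216, adjusted p = 0.173), -0.11 in the ATR comparison (adjusted p = 0.840) and -0.57 in the combined comparison (SE 0.217, adjusted p = 0.0768). The last became a call in 3 of 20 alternatives, and without shCont replicate 1 it was -0.34 (adjusted p = 0.177). NPRL2 and NPRL3 overlap genes on the opposite strand, CYB561D2 with a mean of 291 counts and MPG with a mean of 916 counts, and the same limit on strand holds for them.

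Of the GATOR2 subunits, SEH1L rose in the combined comparison. No GATOR2 subunit was called in the p16 comparison or in the ATR comparison. In these 2 comparisons edgeR gave 1 and 0 of 4 at an unadjusted p under 0.05, and DESeq2 and limma called 0. SEH1L, which is shared with the nuclear pore, measured 29.4, 37.2 and 42.9 CPM in shCont, 51.9, 45.1 and 45.7 CPM in shp16, and 48.0, 47.2 and 49.7 CPM in shp16+shATR. All shCont libraries lay below all libraries of the other groups, which overlapped each other. SEH1L was 1.32-fold higher in shp16+shATR than in shCont (0.41, SE 0.135, adjusted p = 0.0491), and the call was lost in 13 of 20 alternatives. In the p16 comparison the value was 0.38 (SE 0.135, adjusted p = 0.0811).

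MIOS, a WD40-repeat subunit of GATOR2, measured 23.2, 32.1 and 29.9 CPM in shCont, 26.7, 24.9 and 24.1 CPM in shp16, and 22.3, 21.2 and 24 CPM in shp16+shATR. With all libraries, MIOS gave -0.17 in the p16 comparison and -0.33 in the combined comparison (adjusted p = 0.427 and 0.0902). Without shCont replicate 1 both were calls, at -0.30 (adjusted p = 0.0326) and -0.46 (adjusted p = 0.00242). WDR24, a subunit with a RING domain, measured 23.1, 13.6 and 13.7 CPM in shCont, 18.6, 14.7 and 18.6 CPM in shp16, and 17.5, 19.1 and 17.2 CPM in shp16+shATR. Its value in the combined comparison was 0.10 (SE 0.196, adjusted p = 0.768) with shCont replicate 1 and 0.39 (adjusted p = 0.0259) without it, so this library decided the call. WDR59, a further WD40-repeat subunit, measured 24.5, 26.9 and 24.5 CPM in shCont, 21.0, 29.6 and 29.1 CPM in shp16, and 30.1, 35.7 and 26.2 CPM in shp16+shATR. The shp16 libraries overlapped both other groups, and no WDR59 difference passed the test (0.07, 0.21 and 0.28, adjusted p = 0.80, 0.514 and 0.224). ZNRF1, on the strand opposite WDR59, had a mean of 557 counts. SEC13, the remaining GATOR2 subunit, differed by 0.16 in the p16 comparison and by 0.16 in the combined comparison (adjusted p = 0.479 and 0.461).

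In the ATR comparison, then, SESN2 was the 1 of 10 genes called, lower, beside 6.22% of all genes called, 2.73% called higher and 3.49% called lower. The libraries did not overlap for 5 of the 10, beside 37.7% of all genes. In the combined comparison, 2 of 10 were called, SESN3 and SEH1L, both higher, beside 23.6% of all genes called, 10.9% called higher and 12.7% called lower. The libraries did not overlap for 4 of the 10, beside 41.5%. The median over the 10 genes was 0.02 in each of these comparisons. Without shCont replicate 1, the p16, ATR and combined comparisons called 3, 3 and 4 of the 10, beside 25.9%, 19.9% and 33.3% of all genes.

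Levels between genes were compared in FPKM, which accounts for gene length. NPRL3 had the highest level in every group, at 30.2 ± 5.95, 30.8 ± 2.55 and 24.1 ± 0.456 FPKM in shCont, shp16 and shp16+shATR (SD, n = 3). Its libraries did not overlap those of the next gene in any group. SESN2 had the lowest mean, at 2.58 ± 0.141, 3.90 ± 0.449 and 2.62 ± 0.396 FPKM. It lay below all other genes in shCont and shp16+shATR. In shp16 it overlapped NPRL2, at 4.09 ± 1.27 FPKM, and SESN1, at 4.79 ± 0.401 FPKM. In shCont, the 8 genes from MIOS at 8.27 ± 1.64 FPKM down to WDR24 at 5.14 ± 1.45 FPKM overlapped their neighbours and could not be ordered. SESN3 was among these at 6.19 ± 1.85 FPKM, and it was the next gene after NPRL3 in shp16 at 9.94 ± 0.564 FPKM and in shp16+shATR at 12.4 ± 0.368 FPKM, without overlap of its neighbours there. NPRL3 exceeded its partner NPRL2 by 5.45 ± 0.712 times in shCont, 8.28 ± 3.76 times in shp16 and 6.39 ± 0.292 times in shp16+shATR. The ratio of SESN3 to SESN1 in FPKM was 1.18 ± 0.238, 2.08 ± 0.107 and 2.6 ± 0.570 in the same order, and that of SESN3 to SESN2 was 2.41 ± 0.754, 2.56 ± 0.143 and 4.76 ± 0.551.

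**Figure D3:**
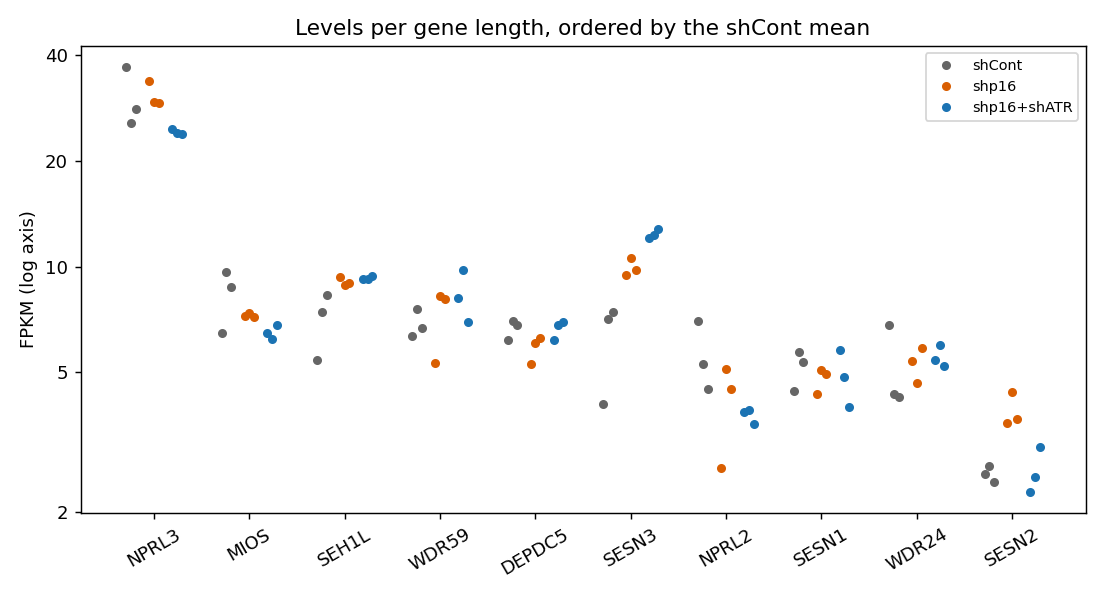
Levels in FPKM (logarithmic vertical axis) are drawn for each library, with the genes ordered by their shCont mean and colours for the 3 groups. NPRL3 is highest and SESN2 lowest by group mean, and SESN3 moves from the middle of the range in shCont, at 6.19 FPKM, to the place after NPRL3 in the other groups, at 9.94 and 12.4 FPKM.

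The gene lists that follow are set beside all 15776 genes tested, whose median log2 fold changes were -0.02, 0.0021 and -0.02 in the p16, ATR and combined comparisons, with 14.8%, 6.22% and 23.6% called. These shares are edgeR calls at the adjusted threshold, and none is given for counts at an unadjusted p or by DESeq2 or limma. Partners and regulators of GATOR were described as a list of 12 genes, 11 of them tested. The GATOR2 subunit SEC13 was counted in this list. CASTOR1, listed under its older symbol GATSL3, was under the filter. In the p16 comparison, 1 of 11 rose and 1 fell, with a median log2 fold change of -0.14. C12orf66, which encodes the KICSTOR subunit KICS2 that helps to hold GATOR1 at the lysosome, rose by 0.44 (SE 0.117, adjusted p = 0.0283). It measured 16.3, 18.8 and 19.6 CPM in shCont, 27.1, 23.9 and 23.0 CPM in shp16, and 19.4, 19.4 and 18.3 CPM in shp16+shATR. Its values of -0.37 in the ATR comparison (adjusted p = 0.0887) and 0.06 in the combined comparison (adjusted p = 0.735) did not pass the test. RNF152, a ubiquitin ligase for RagA, measured 3.05, 5.60 and 6.04 CPM in shCont, 2.44, 2.13 and 2.34 CPM in shp16, and 1.67, 0.865 and 1.84 CPM in shp16+shATR. It fell by 1.08 in shp16 (SE 0.305, adjusted p = 0.0349) and by 1.76 in shp16+shATR (SE 0.322, adjusted p = 0.00234), both against shCont.

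With ATR knockdown added to shp16, edgeR called 0 of the 11 partners, with 3 at an unadjusted p under 0.05, while DESeq2 called 1 and limma 0. The median was 0.04. The combined comparison gave 1 partner that rose and 3 that fell, with a median of 0.06. C7orf60, which encodes the S-adenosylmethionine sensor SAMTOR, rose by 0.81 (SE 0.177, adjusted p = 0.00695). It measured 16.2, 24.6 and 26.9 CPM in shCont, 37.3, 28.2 and 29.7 CPM in shp16, and 39.0, 37.0 and 42.1 CPM in shp16+shATR. All shp16 libraries lay above all shCont libraries. The p16 comparison gave 0.49 (adjusted p = 0.0857) and the ATR comparison 0.31 (adjusted p = 0.361), and neither passed the test. KLHL22, an adaptor of the ubiquitin ligase that acts on DEPDC5, fell by 0.66 (adjusted p = 0.00283). Beside RNF152, the remaining call was the KICSTOR subunit KPTN, named after its value was seen, which fell by 0.56 (adjusted p = 0.0167). In the p16 comparison KPTN gave -0.47 (adjusted p = 0.0526), which did not pass the test.

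The list of Rag GTPases, their lysosomal anchor Ragulator, folliculin and its partners, and the arginine sensor SLC38A9 held 13 genes, all tested. In the p16 comparison, 2 rose and none fell, with a median of -0.02. RRAGA, which encodes RagA, the GTPase that GATOR1 switches off, measured 61.5, 44.2 and 46.1 CPM in shCont, 66.6, 69.9 and 66.4 CPM in shp16, and 72.0, 75.6 and 72.9 CPM in shp16+shATR. RRAGC, which encodes its dimer partner RagC, measured 57.4, 59.5 and 57.2 CPM in shCont, 74.2, 74.5 and 73.8 CPM in shp16, and 86.4, 78.5 and 90.5 CPM in shp16+shATR. For both genes, every shp16 and shp16+shATR library lay above every shCont library. RRAGA rose by 0.42 and RRAGC by 0.35 in shp16 (adjusted p = 0.0471 and 0.0302), and by 0.54 and 0.55 in the combined comparison (adjusted p = 0.00995 and 0.00172).

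Relative to shCont, 3 of these 13 genes rose in shp16+shATR and 1 fell, with a median of 0.18. Beside RRAGA and RRAGC, FLCN, which encodes folliculin and was named after its value was seen, rose by 0.36 (adjusted p = 0.0451), and the Ragulator subunit LAMTOR2 fell by 0.60 (adjusted p = 0.0289). For the ATR comparison, edgeR called 0 of the 13, with 1 at an unadjusted p under 0.05, and DESeq2 and limma called 0.

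**Figure D4:**
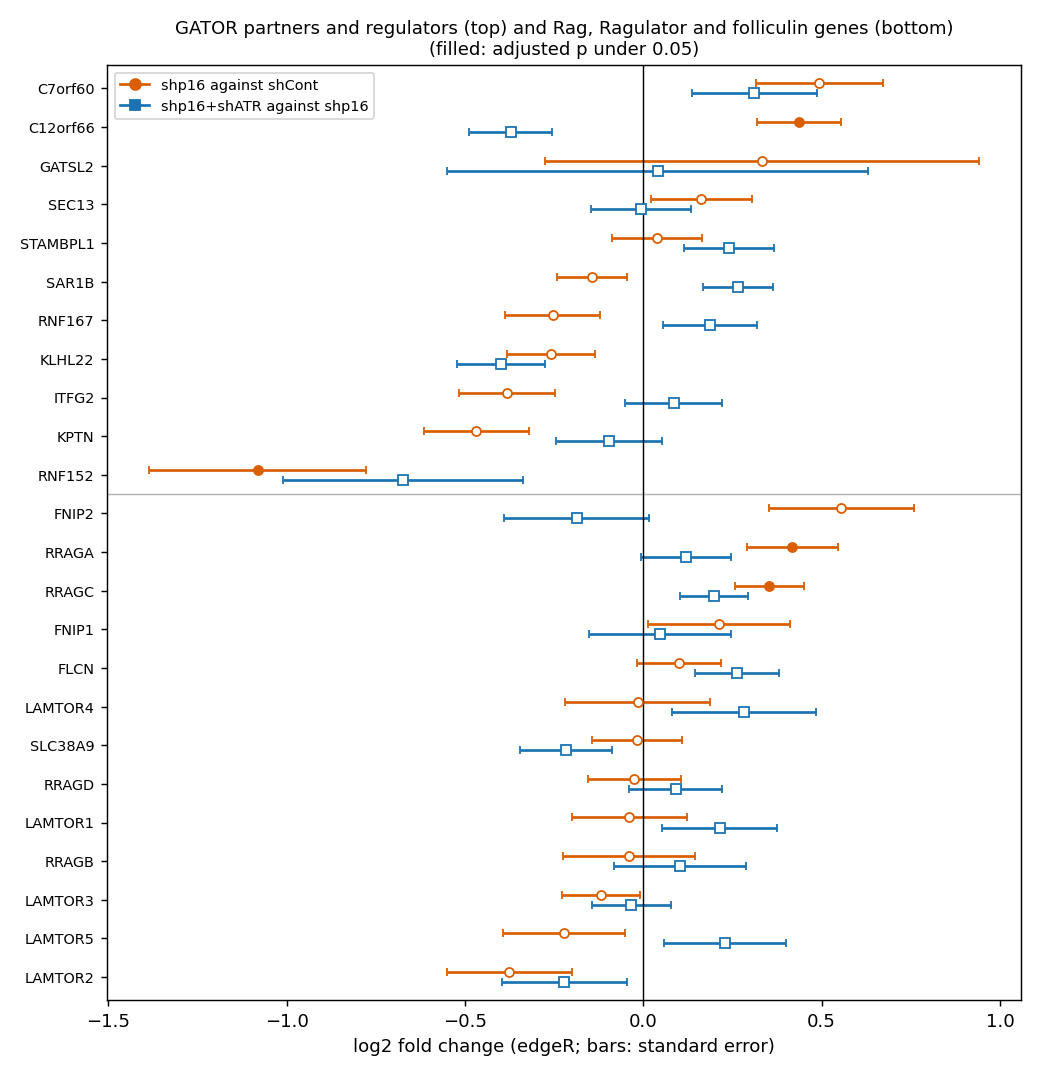
The log2 fold changes (horizontal axis, bars for the SE, edgeR) of the 11 GATOR partners and regulators tested, above the line, and of the 13 Rag, Ragulator and folliculin genes, below it, are drawn for the p16 and ATR comparisons. Filled symbols, for an adjusted p under 0.05, are C12orf66, RNF152, RRAGA and RRAGC, all in the p16 comparison.

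Transcription factors known to act on sestrin genes (FOXO1, FOXO3, FOXO4, ATF4 and NFE2L2) gave 0 calls by edgeR, DESeq2 or limma in any comparison, with 1, 1 and 0 of 5 at an unadjusted p under 0.05. In the p16 comparison, ATF4 gave -0.05, NFE2L2 -0.20, FOXO1 0.62, FOXO3 0.48 and FOXO4 -0.02. The ATR comparison gave 0.03, 0.23, -0.15, -0.08 and -0.31 in the same order. FOXO1 and FOXO3 were lowest in shCont replicate 1, at 2.47 and 31.9 CPM, with the other shCont libraries at 6.54 and 6.83 CPM for FOXO1 and at 62.7 and 69.0 CPM for FOXO3. ATF4 was lowest in shp16 replicate 1, at 121 CPM, with the other shp16 libraries at 242 and 235 CPM. The shCont libraries gave 250, 192 and 176 CPM for ATF4. How far shp16 replicate 1 set the ATF4 values was not tested.

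Other targets of these factors were described beside the sestrins. Of 22 ATF4 targets, 9 rose and none fell in the p16 comparison, with a median of 0.34. CHAC1, a glutathione-degrading enzyme of the stress response, measured 1.06, 1.08 and 0.450 CPM in shCont, 3.90, 5.55 and 6.34 CPM in shp16, and 0.980, 1.3 and 1.02 CPM in shp16+shATR. CHAC1 rose by 2.6 in shp16 (SE 0.318, adjusted p = 0.000287), STC2, a secreted glycoprotein, by 2.58 (adjusted p = 0.00309) and ATF3, a stress-induced transcription factor, by 1.23 (adjusted p = 0.00551). Among the same 22 genes 3 fell and 1 rose in the ATR comparison, with a median of -0.21. CHAC1 fell by 2.24 (adjusted p = 0.00224), ATF3 by 1.39 (adjusted p = 0.00683) and MTHFD2, an enzyme of mitochondrial folate metabolism, by 0.67 (adjusted p = 0.00496), whereas DDIT4, an inhibitor of mTORC1 that acts through TSC2, rose by 0.47 (adjusted p = 0.0224). DDIT4 also rose in the p16 comparison, by 0.51 (adjusted p = 0.00732). Of the 22, 6 rose and 2 fell in the combined comparison, with a median of 0.04, STC2 at 2.04 and DDIT4 at 0.97. Genes such as CHAC1, with about 1 CPM in shCont, are measured less precisely than SESN2.

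**Figure D5:**
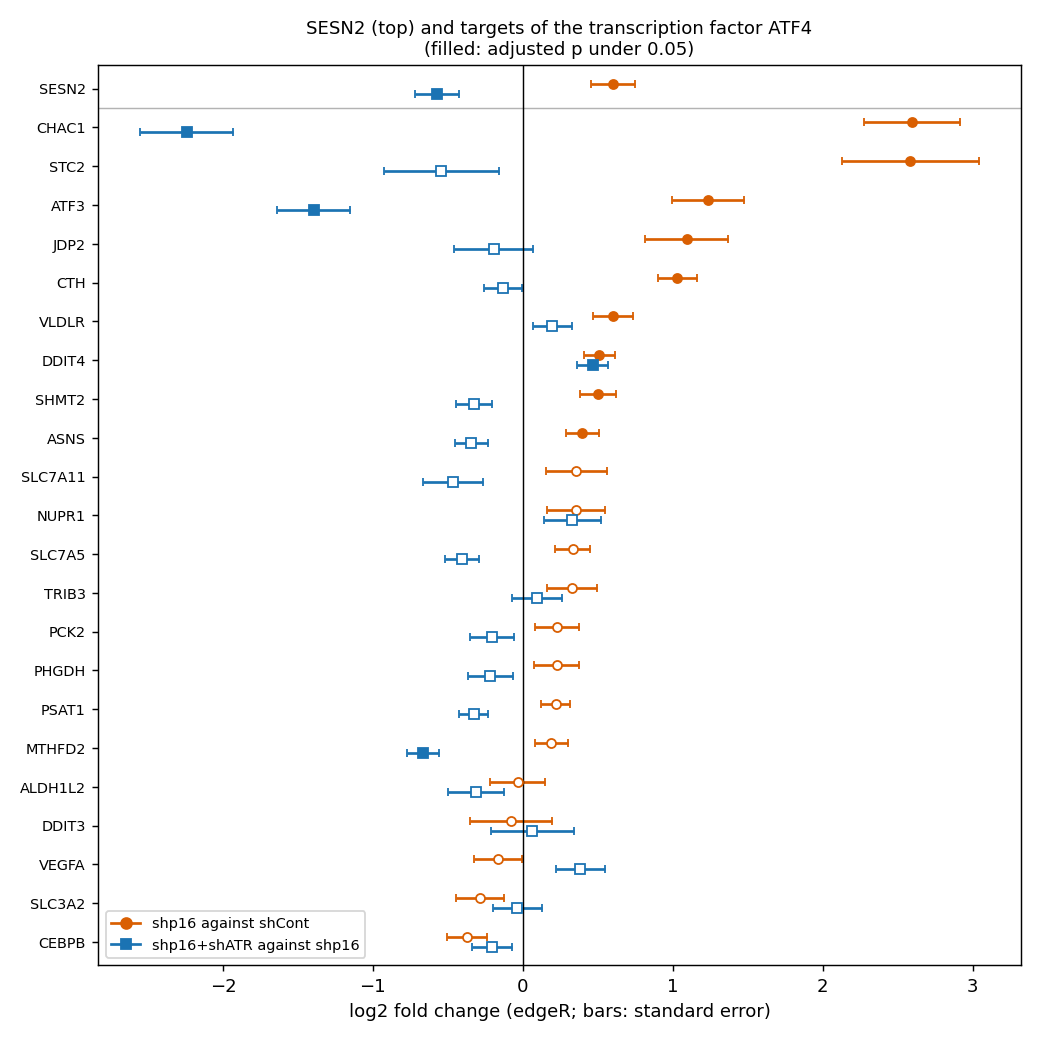
The log2 fold changes (horizontal axis, bars for the SE, edgeR) of SESN2, above the line, and of 22 ATF4 targets are drawn for the p16 and ATR comparisons, which share the shp16 libraries. SESN2, CHAC1 and ATF3 are filled (adjusted p under 0.05) on the right for the p16 comparison and on the left for the ATR comparison, while DDIT4 is filled on the right for both. Every other target filled for the p16 comparison is open for the ATR comparison.

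Of 14 FOXO targets tested of 15, 3 rose and 4 fell in the p16 comparison (median -0.13), 3 rose and 1 fell in the ATR comparison (median -0.05), and 4 rose and 5 fell in the combined comparison (median 0.15). BCL2L11, which encodes the pro-apoptotic protein BIM, rose by 0.69 in the p16 comparison and by 1.18 in the combined comparison (adjusted p = 0.00317 and 5.07e-05). SESN3 also rose in the p16 and combined comparisons. In the ATR comparison, however, BCL2L11 was called higher (0.49, adjusted p = 0.0332) and SESN3 was not called (0.31, adjusted p = 0.343). INSR, the insulin receptor, fell by 2.30 and fell by 3.11 in these comparisons (adjusted p = 0.000344 and 3.93e-05), and CITED2, a transcriptional coregulator, fell by 0.72 and fell by 1.32 (adjusted p = 0.00318 and 3.71e-05).

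Without shCont replicate 1, a fit in which 25.9%, 19.9% and 33.3% of 16184 genes were called in the p16, ATR and combined comparisons, more genes of each of these lists were called in every comparison. ATF4 targets gave 14 higher and 1 lower in the p16 comparison, 2 higher and 9 lower in the ATR comparison, and 8 higher and 4 lower in the combined comparison. GATOR partners gave 2 higher and 2 lower, then 1 and 2, then 3 and 3. Rag, Ragulator and folliculin genes gave 4 higher and 0 lower, then 2 and 0, then 5 and 1. FOXO targets gave 4 higher and 5 lower, then 5 and 3, then 5 and 5. Of the 5 transcription factors, 1 was called in each comparison.

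The genes whose log2 CPM followed each sestrin most closely over the 9 libraries were sought among 10736 genes with a mean of at least 5 CPM, as a description. For SESN3 these included ATP6V1A, a subunit of the lysosomal proton pump (Pearson r = 0.998), and SNTB1 (0.996). The mean level of ATP6V1A was 114 CPM in shCont, 174 CPM in shp16 and 210 CPM in shp16+shATR. For SESN2 they were TRIM69 (0.959), C1orf21 (0.954) and PARD6G (0.940), with TRIM69 at 14.5, 16.7 and 14 CPM in the same order. For SESN1 they were LHX8 (0.901), CWC25 (0.901) and ZBTB25 (0.863). Among the 10 genes themselves, SESN3 and SEH1L had r = 0.935, NPRL2 and SEH1L had r = -0.929, and SESN2 and SESN3 had r = 0.203. The points share the 3 groups and the libraries that stand apart, so these values are no measure of independent agreement.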

How the data were processed

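Total RNA of SKMEL28 cells was extracted with Trizol and a column clean-up, and libraries were made with a NEBNext kit. Sequencing and bioinformatics were done at Novogene. The submitters' processing notes name STAR 2.6.1, DESeq2 2 and GRCh38. The gene positions in the tables differ from GRCh38 for all 10 members, and the tables name no build.

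Read counts of 48162 genes were deposited as raw values, with no normalization by the authors. They also deposited FPKM values, which equalled each count scaled by gene length and library total (largest relative difference 4.22e-07). Because 1 header name is repeated over the 3 shp16+shATR columns of counts, the letters a, b and c stand for these libraries.

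All 9 libraries were fitted together in edgeR 4.0.16 (R 4.3.3) with TMM normalization, filterByExpr, 1 coefficient per group and the quasi-likelihood test. A gene was called at a Benjamini-Hochberg adjusted p of 0.05 over the 15776 genes tested, and the test was two-sided. Every adjusted p is from this test unless another tool is named. The smallest p of an exact permutation test of 3 libraries against 3 is 0.1, so none was used. The test was checked on simulated data in which every gene had the same spread and no library stood apart. The simulated spread was close to that fitted without shCont replicate 1 (coefficient of variation 0.0903), beside 0.149 with all libraries. The check therefore does not cover a library that stands apart.

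The named genes are the 10 members, CDKN2A, ATR, SEC13, every gene of lists of at most 6, up to 3 called genes with the largest change per list and comparison, and the 3 genes most correlated with each sestrin. The members and lists were chosen with earlier results of these data known. PDK4 was under the filter. Some listed or correlated genes, and 1 list, are not reported here.

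Alternatives were DESeq2 1.42.0, RLE, upper-quartile and library-size scaling, no filter, at least 10 counts per library throughout, a fit restricted to the groups compared, limma 3.58.1 on log2(FPKM + 1) or log2(FPKM + 0.1), an adjusted p of 0.01, a replicate block, and each library left out.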

Additional observations from a re-analysis of the deposited data

How the results depend on the processing

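SESN3 in the combined comparison kept its call in all 20 alternatives (log2 fold change 0.80 to 1.16). SESN2 and SESN3 in the p16 comparison kept their direction in all 21 and each lost its call in 5, at 0.45 to 0.66 (adjusted p from 0.00724 to 0.109) and 0.49 to 0.85 (adjusted p from 1.73e-05 to 0.129), and SESN2 in the ATR comparison kept its direction at -0.71 to -0.44 (adjusted p from 0.0110 to 0.213). The counts of members called in the p16, ATR and combined comparisons, which were 2, 1 and 2, became 1, 3 and 1 when only the groups compared were fitted, and 0, 0 and 1 at an adjusted p of 0.01. In the ATR comparison the count was 0 with upper-quartile factors, library size only, or limma on log2(FPKM + 1) or log2(FPKM + 0.1). In the combined comparison it was 1 with library size only and with both limma fits. Leaving out 1 library gave 0 to 3, 0 to 3 and 1 to 4 members.

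Over all genes the counts called, which were 2339, 981 and 3724, became 1186 and 2878 in the first pair of comparisons when only the groups compared were fitted, and 994, 309 and 1974 at an adjusted p of 0.01. Leaving out 1 library gave 1344 to 4192, 292 to 3223 and 2354 to 5395 genes, the highest of each range without shCont replicate 1. Upper-quartile scaling changed the share of calls that were higher from 48.8% to 38.5% in the p16 comparison and from 43.8% to 54.2% in the ATR comparison, with medians over all genes of -0.07 and 0.04.

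Whether replicate numbers pair the libraries was not settled. The deviations of same-numbered libraries from their group means correlated at -0.30 to 0.29 over the comparisons. Differently numbered libraries were not compared in this way, so these values cannot decide it. With the replicate block, edgeR on shCont and shp16 called 0 members and 423 genes. limma on log2(FPKM + 1) with the replicate block called 1, 0 and 1 members, with 1513 genes in the p16 comparison and 481 in the ATR comparison. The edgeR block was not run for comparisons with shp16+shATR, whose count columns share 1 header name, and the limma block used the numbered FPKM columns.

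Signs changed only for values that did not pass the test. With upper-quartile factors NPRL3 and WDR24 in the p16 comparison were -0.031 and -0.021. DEPDC5 in the combined comparison was -0.017 with upper-quartile factors, -0.00093 with library size only, -0.0016 with limma on log2(FPKM + 1), with or without the block, and -0.0017 on log2(FPKM + 0.1). Leaving out 1 library gave, in the p16 comparison, -0.095 to 0.23 for NPRL3, -0.089 to 0.34 for WDR24 and -0.011 to 0.22 for WDR59. In the ATR comparison it gave -0.11 to 0.14 for SESN1, -0.31 to 0.062 for NPRL2, -0.053 to 0.11 for WDR24 and -0.017 to 0.088 for SEH1L. In the combined comparison it gave -0.22 to 0.038 for SESN1, -0.11 to 0.12 for SESN2, -0.042 to 0.058 for DEPDC5 and -0.038 to 0.39 for WDR24. A stricter threshold lowers a count by construction, and for the other alternatives the cause was not tested.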
